A study of Caenorhabditis elegans with 3 samples.

Results

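The cytosolic ribosomal protein genes of *Caenorhabditis elegans* were examined in RNA of late L4 hermaphrodites, animals at the end of the last larval stage. Genes were taken by symbol from the platform annotation (rpl or rps followed by a number, or rla). This gave 54 genes on 55 features among the 20000 features of the array, 31 of the large subunit and 23 of the small subunit. All 54 were measured on all 3 arrays and entered a fit over 19292 genes and unnamed features. No gene carried an rla symbol or was named *rpl-7A*. A further 12 ribosomal protein genes whose symbols have a letter after the number or begin with rplp fell outside the rule and are described separately.

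On 3 two-colour arrays, late L4 material (preps 1, 2 and 3, time point code 5) was compared with a mixed reference made of wild-type worm RNA. The labels give neither the strain of the late L4 animals nor the stages pooled in the reference. Whether separate cultures gave rise to the preps is not said, so p-values measure the spread between these arrays, which may be technical. The sample titles end in differing date-like strings. What these strings stand for is not said, and they cannot be told apart from prep. The values are log2 ratios, read as late L4 over reference. That direction is likely, since it rests on the wording of the sample descriptions alone, and without dye swaps an effect of the dye on a gene cannot be told apart from a difference in RNA. The number of arrays limits the precision.

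Ribosomal proteins coat the ribosomal RNA of the 2 subunits of the cytosolic ribosome. The small subunit reads the messenger RNA, and the large subunit joins amino acids and releases the chain through its exit tunnel. These proteins are made in near-equal amounts by every growing cell. In the worm the germ line and other growing tissues are known for a high demand for ribosomes. Because whole animals were measured, fewer cells of a type and less RNA per cell cannot be told apart.

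As a group the ribosomal protein genes stood modestly above the reference. The median log2 ratio of the 54 genes reached 0.53, 0.52 and 0.50 on preps 1 to 3, while all 19292 genes had medians of 0.01, -0.10 and -0.06 on the same arrays. Over the 3 arrays the median of the members' means was 0.51, against -0.03 for all genes. The mean was above 0 for 49 members and below 0 for 5. The members' means lay within a narrow range, from -0.28 to 1.32, with an SD over genes of 0.34, while the SD over all genes was 0.81.

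By limma, 13 members were called higher and 0 lower at an adjusted p under 0.05, and 41 were not called. Over all genes 12% were called higher and 10.8% lower. The members' share of higher calls was 24.1%. At an unadjusted p under 0.05, 25 members were higher and 0 lower, against 16.5% of all genes in each direction. The log2 ratio was positive on all 3 arrays for 41 members (75.9%), negative on all 3 for 2 and mixed for 11. Among all genes 23.2% were positive and 27.9% negative on all 3 arrays. The counts of calls changed when 1 prep was left out, which alters both the number of arrays and which arrays are fitted. Without prep 1, 7 of 54 members were higher (all genes 10.2%), without prep 2, 4 of 54 (10.7%) and without prep 3, 7 of 54 (9.35%). The members' share was thus below that of all genes without prep 2, and only a little above it without prep 1 or prep 3. Of the 13, *rpl-4* and *rpl-5* were the 2 that were called without any 1 prep.

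**Figure D1:**
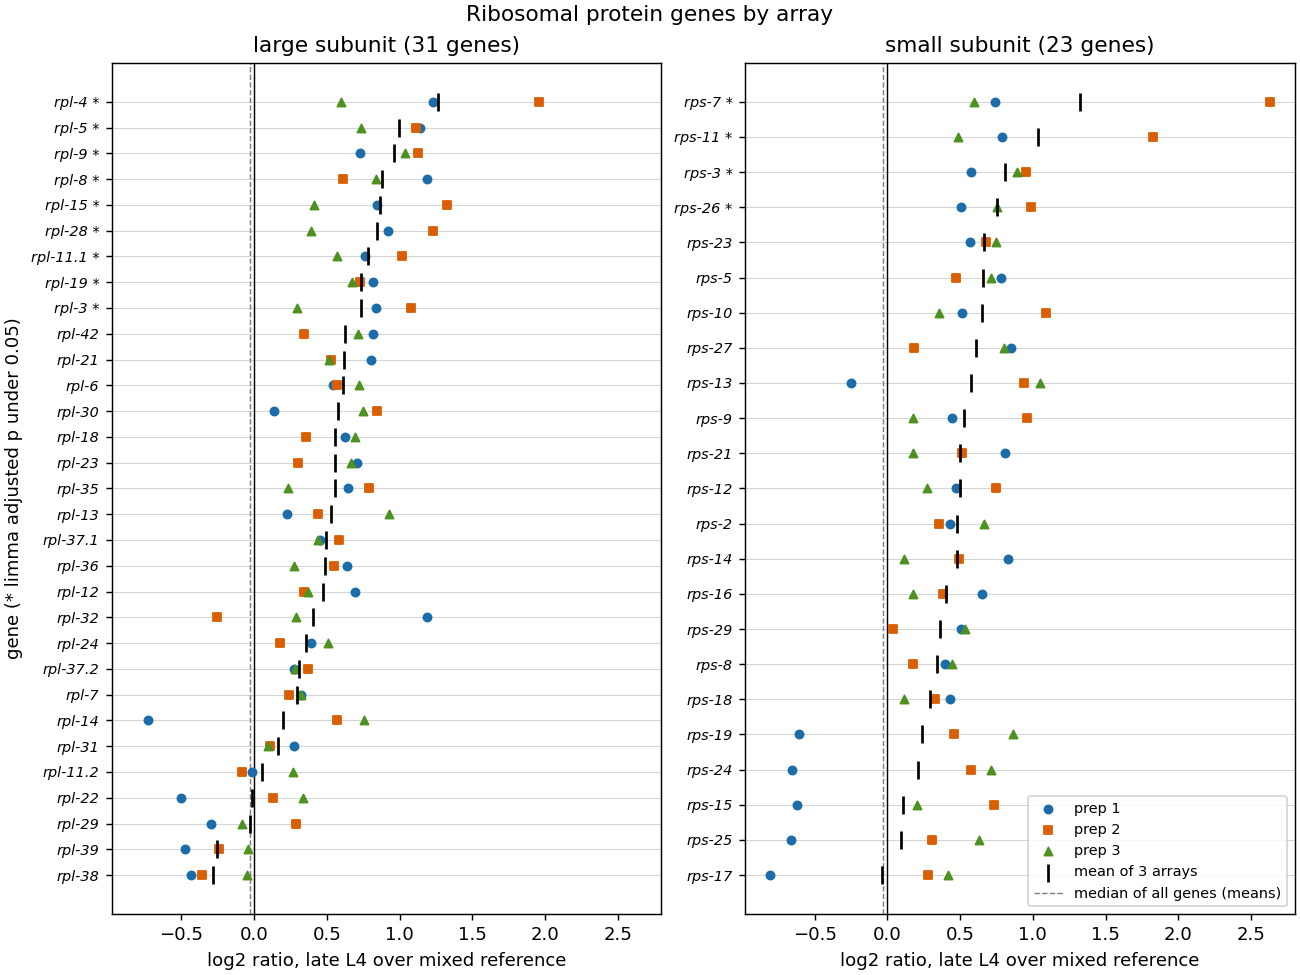
Log2 ratio of each ribosomal protein gene (late L4 over mixed reference, horizontal axis) on prep 1 (circles), prep 2 (squares) and prep 3 (triangles), with the mean of the 3 arrays (bars), for 31 large subunit genes (left) and 23 small subunit genes (right). Genes with an asterisk had a limma adjusted p under 0.05. Most points lie to the right of 0, *rps-7*, *rps-11* and *rpl-4* reach above 1.5 on prep 2, and a set of mostly small subunit genes lies far to the left on prep 1.

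The large and small subunit genes did not differ in a stable direction. On prep 1 the large subunit median was 0.64 and the small subunit median 0.51. On prep 2 the medians were 0.53 and 0.51, and on prep 3 they were 0.44 and 0.54. The large subunit was thus higher on preps 1 and 2 and lower on prep 3. The difference, large minus small, was 0.13, 0.02 and -0.10, with a mean of 0.02 ± 0.12 (SD, n = 3; exact two-sided sign-flip permutation test, p = 0.75). With 3 arrays the smallest p this test can give is 0.25. Limma called 9 of 31 large subunit genes higher (29.0%) and 4 of 23 small subunit genes (17.4%), against 12% of all genes. These 2 subunit shares were not tested against each other.

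**Figure D2:**
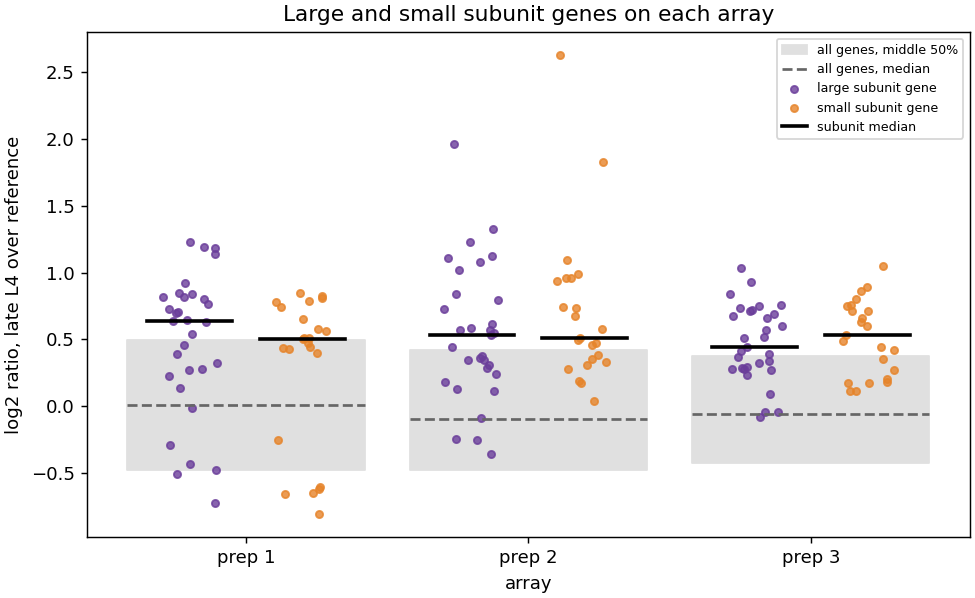
Log2 ratios (vertical axis) of large and small subunit genes on each array, 1 point a gene, with the subunit median as a black bar. The dashed line and grey band give the median and the interquartile range of all genes. Both subunit medians lie above the dashed line on every array, from 0.44 to 0.64, and several small subunit genes form a separate low cluster on prep 1.

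Within the large subunit, genes were grouped, after the values were seen, by the place of their product in the yeast and mammalian ribosome. The 5S particle, in which the proteins L5 and L11 hold the 5S RNA, had 3 genes here. *rpl-5* (F54C9.5) measured 1.14, 1.11 and 0.73 on preps 1 to 3 and was 1.99-fold higher (mean 1.00 ± 0.23, SD, n = 3; limma, adjusted p = 0.00660). Its partner exists as a pair of copies in the worm. *rpl-11.1* (T22F3.4, chromosome V) measured 0.76, 1.02 and 0.57 and was 1.72-fold higher (limma, adjusted p = 0.0274). *rpl-11.2* (F07D10.1), the single member on the X chromosome, measured -0.01, -0.09 and 0.27 (mean 0.06 ± 0.19, limma adjusted p = 0.91).

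The autosomal copy was therefore above the X-linked copy on each array. The difference *rpl-11.1* minus *rpl-11.2* was 0.78, 1.10 and 0.30, a mean of 0.73 ± 0.40 (SD, n = 3; exact sign-flip permutation test, p = 0.25, the smallest it can give). In the worm, loss of *rpl-11.1* is known to impair the proliferation of the germ line, a tissue in which the X chromosome is largely silent. Whether the germ line or the X chromosome has a part in the difference between the copies was not tested. The call of *rpl-11.1* was lost without any 1 prep (limma, adjusted p = 0.082 without prep 1, 0.18 without prep 2 and 0.062 without prep 3). Close copies may share signal on an array, and the probe type is not given in the sources used here, so that part was not tested.

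A second pair with 1 copy on the X, outside the rule and named after its values were seen, ran the same way. *rpl-23A.2* (chromosome I) measured 0.79, 0.97 and 0.68 (1.76-fold higher; limma, adjusted p = 0.0210). Its X-linked copy *rpl-23A.1* measured -0.45, -0.06 and -0.30 (limma, adjusted p = 0.48). The difference was 1.24, 1.03 and 0.98, a mean of 1.08 ± 0.14 (SD, n = 3; exact sign-flip permutation test, p = 0.25, the smallest it can give). L23A lies at the mouth of the exit tunnel. Another pair, *rpl-37.1* and *rpl-37.2*, both autosomal, had means of 0.49 ± 0.08 and 0.31 ± 0.06 (limma, adjusted p = 0.16 and 0.41). Their difference was 0.18, 0.21 and 0.16 on preps 1 to 3.

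Of 7 genes grouped as lining the peptidyl transferase centre or the exit tunnel, 4 were higher, 0 lower, and the median of the means was 0.74. The share higher was 57.1%, against 12% of all genes. This group was picked by hand with the values known, so its share is a description. *rpl-4* (B0041.4), whose product forms a constriction of the tunnel, measured 1.23, 1.96 and 0.60 and had the highest mean of the large subunit, 1.26 ± 0.68 (2.40-fold; limma, adjusted p = 0.00334). *rpl-8* (B0250.1), for a protein next to the peptidyl transferase centre, measured 1.19, 0.61 and 0.84 and was 1.84-fold higher (limma, adjusted p = 0.0156). *rpl-3* (F13B10.2), also next to that centre, measured 0.84, 1.08 and 0.29 and was 1.67-fold higher (limma, adjusted p = 0.0456). *rpl-19* (C09D4.5), at the tunnel mouth, had nearly equal values of 0.81, 0.73 and 0.67 and was 1.67-fold higher (limma, adjusted p = 0.0339). Of these 4, *rpl-4* passed the threshold without any 1 prep. The limma adjusted p of *rpl-8* was 0.118 without prep 1 and 0.0657 without prep 3, that of *rpl-3* was 0.157 without prep 1 and 0.284 without prep 2, and that of *rpl-19* lay between 0.105 and 0.132 without any 1 prep.

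The other 3 genes of the peptidyl transferase and exit tunnel group were not called. *rpl-35* had a mean of 0.56 ± 0.29. *rpl-31*, the single member with 2 features, had feature means of 0.26 and 0.06 and a gene mean of 0.16 ± 0.10. *rpl-39*, for a very small protein in the tunnel wall, measured -0.48, -0.24 and -0.04 (mean -0.25 ± 0.22; limma, adjusted p = 0.51).

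Among the other 21 large subunit genes, 3 were higher (14.3%, near the 12% of all genes), 0 lower, and the median was 0.49. *rpl-9* (R13A5.8) measured 0.73, 1.12 and 1.04 and was 1.95-fold higher (limma, adjusted p = 0.00800). *rpl-15* (K11H12.2) measured 0.85, 1.33 and 0.41 and was 1.82-fold higher (limma, adjusted p = 0.0225). *rpl-28* (R11D1.8) measured 0.92, 1.23 and 0.39 and was 1.80-fold higher (limma, adjusted p = 0.0235). All 3 were above 0 on every array, with the highest value on prep 2. Without prep 2 the limma adjusted p was 0.214 for *rpl-15* and 0.190 for *rpl-28*, and without prep 1 it was 0.0619 and 0.0848. Without prep 3 that of *rpl-9* was 0.0544.

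At the other end *rpl-38* (C06B8.8) had the lowest mean of the 54 genes. Its values were -0.43, -0.36 and -0.05 (mean -0.28 ± 0.21; limma, adjusted p = 0.47), and its mean lay at percentile 30.1 of all genes. *rpl-39* and *rpl-38* were the 2 members below 0 on all 3 arrays, which held for neither after neighbour centring, the subtraction of the median of the 30 features nearest in number on the same array (means of 0.11 and -0.03). In the mouse, L38 is known for a role in the translation of Hox messages. *rpl-29* had a mean of -0.03 ± 0.29 and *rpl-22* one of -0.01 ± 0.44, both with values of mixed sign. *rpl-32* was divided between arrays, at 1.19, -0.25 and 0.29 (mean 0.41 ± 0.73).

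The small subunit was divided into its head, which swivels during translocation, and its body and platform. Of 12 body and platform genes, 3 were higher (25%, against 12% of all genes), 0 lower, and the median of the means was 0.55. *rps-7* (ZC434.2) had the highest mean of the 54 genes and the largest SD. It measured 0.74, 2.63 and 0.60 (mean 1.32 ± 1.13, 2.50-fold; limma, adjusted p = 0.00940), and without prep 2 its mean was 0.67 (limma, adjusted p = 0.18). *rps-11* (F40F11.1) had the same shape, with 0.79, 1.83 and 0.49 (2.05-fold; limma, adjusted p = 0.0132; 0.21 without prep 2).

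*rps-26* (F39B2.6), whose product touches the message at its exit from the ribosome, measured 0.51, 0.99 and 0.75 and was 1.68-fold higher (limma, adjusted p = 0.0347; from 0.0514 to 0.214 with 1 prep left out). *rps-23* (F28D1.7), for a protein of the decoding centre, had close values of 0.57, 0.68 and 0.75 and missed the threshold (mean 0.66 ± 0.09; limma, adjusted p = 0.0557), which it passed after median centring (adjusted p = 0.0445). *rps-2*, for a protein at the entry of the message channel, had a mean of 0.48 ± 0.16. *rps-14* and *rps-21*, which lie in the same stretch of chromosome III (F37C12.9 and F37C12.11), had nearly the same values on each array, 0.83, 0.49 and 0.12 for the first and 0.81, 0.51 and 0.18 for the second.

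Of 11 head genes, 1 was higher (9.09%, against 12% of all genes), 0 lower, and the median was 0.36. The higher gene was *rps-3* (C23G10.3), for a protein at the message entry, with values of 0.57, 0.96 and 0.89 (1.75-fold; limma, adjusted p = 0.0231; 0.127 without prep 2 and 0.112 without prep 3). *rps-5*, whose product touches the exit site, measured 0.78, 0.48 and 0.71 (mean 0.66 ± 0.16; limma, adjusted p = 0.0603). The lowest head gene was *rps-17*, at -0.81, 0.28 and 0.42 (mean -0.04 ± 0.67). The body and platform median exceeded the head median by 0.07, 0.17 and 0.21 on preps 1 to 3, a mean of 0.15 ± 0.07 (SD, n = 3; exact sign-flip permutation test, p = 0.25, the smallest it can give). After neighbour centring the difference was -0.08, 0.06 and 0.06 (mean 0.01 ± 0.08; exact sign-flip permutation test, p = 1). Limma then called 2 of 12 body and platform genes and 3 of 11 head genes higher, against 13.6% of all genes. The role groups were set after the values were seen.

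The arrays ordered the members differently. Across the 54 members, Pearson's r was 0.37 for preps 1 and 2, 0.12 for preps 1 and 3 and 0.30 for the remaining pair, while across all 19292 genes it was 0.70, 0.73 and 0.69. These points share their arrays and a narrow range, and the values are descriptions. On prep 1, 8 members lay below -0.25 while being above 0 on both other preps, a limit chosen after the values were seen. They were *rps-13*, *rps-15*, *rps-17*, *rps-19*, *rps-24*, *rps-25*, *rpl-14* and *rpl-22*, thus 6 of 23 small subunit genes and 2 of 31 large subunit genes. These are 14.8% of the members, and the same pattern held for 2.96% of all genes. The pattern asks for values above 0 on preps 2 and 3. Of the 54 members 50 and 51 had such values, against 8511 and 8910 of all 19292 genes. The shares therefore do not measure a drop on prep 1 alone.

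The 8 genes illustrate how far 1 array moved a mean. *rps-19* measured -0.61, 0.46 and 0.86, and *rps-24* measured -0.65, 0.58 and 0.71. *rps-15* measured -0.62, 0.74 and 0.20, and *rps-25* measured -0.66, 0.31 and 0.63. All 4 are small subunit genes that were below 0 on prep 1 and above 0 on the other arrays. *rpl-14* measured -0.73, 0.57 and 0.76, and its mean of 0.20 ± 0.81 became 0.66 without prep 1. *rps-13* was low on prep 1 (-0.25) but at 0.94 and 1.05 on the other arrays.

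These low values went with the values of features of nearby number. For each feature the median of the 30 features nearest in number was taken on the same array. On prep 1 this neighbour median ran from -0.83 to -0.17 for the 8 genes, with a median of -0.42, and was 0.12 at the median of the other members. Over the 54 members, the correlation of a member's value with its neighbour median (Pearson) came to 0.60, 0.45 and 0.49 on preps 1 to 3. Over all measured features it was 0.26, 0.25 and 0.27. A correlation depends on the spread of the values. Their SD was 0.55, 0.54 and 0.28 over members and 0.96, 0.85 and 0.89 over all genes. The coefficients thus do not show that members follow their neighbours more closely. Consecutive features with a known chromosome lay on the same one in 99.4% of 13004 cases, so position in the numbering and position in the genome cannot be told apart.

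**Figure D3:**
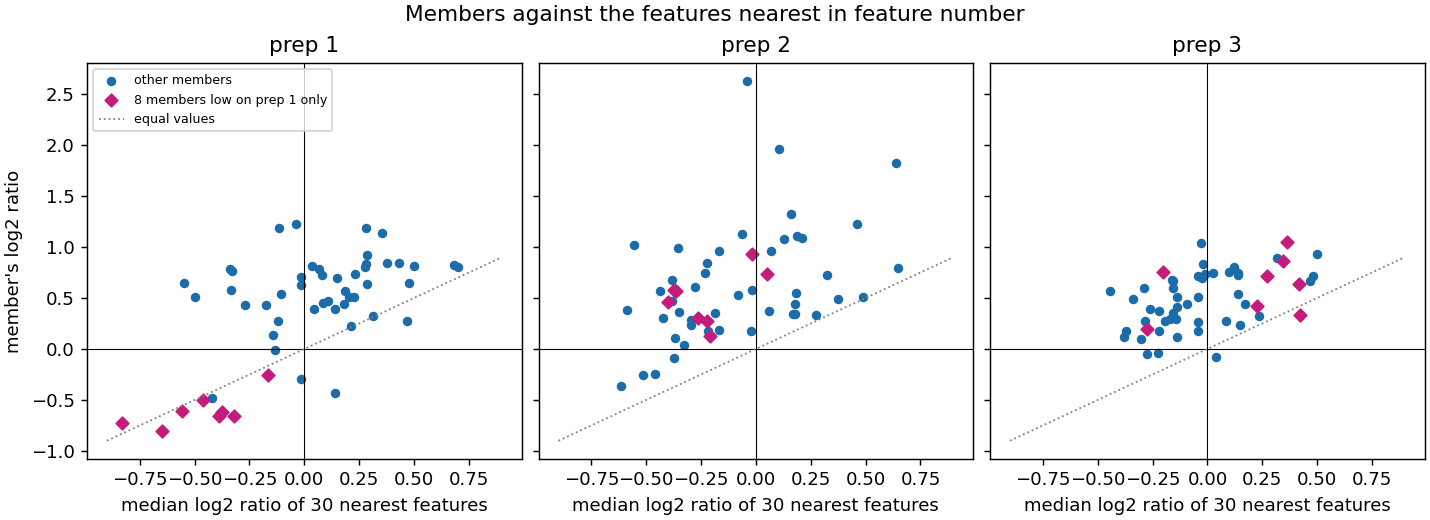
Log2 ratio of each member (vertical axis) against the median log2 ratio of the 30 features nearest in number on the same array (horizontal axis), for preps 1 to 3. Diamonds are the 8 members low on prep 1 and above 0 on both other preps, and the dotted line marks equal values. On prep 1 the diamonds lie near the line with neighbour medians from -0.83 to -0.17, and on preps 2 and 3 most members lie above it.

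With each feature's neighbour median subtracted, an alternative chosen after the data were seen, the median of the members' means was 0.51 again, with medians of 0.37, 0.65 and 0.52 on preps 1 to 3. The prep 1 values of the 8 genes then lay between -0.34 and 0.10, with a median of -0.12 and 1 of 8 above 0. The agreement between arrays across members changed to r = 0.33 for preps 1 and 2, 0.56 for preps 1 and 3 and 0.55 for preps 2 and 3. Across all genes it rose as well, to 0.71, 0.80 and 0.76 for the same pairs. Limma then called 18 members higher and 0 lower, while 13.6% of all genes were called higher and 24.8% in either direction. On all 3 arrays 43 members were positive, against 28.7% of all genes. Of the 13 original calls 11 were kept. The 2 lost were *rps-7* (mean 1.31, limma adjusted p = 0.058) and *rps-26* (mean 0.77, limma adjusted p = 0.054), whose deposited means were 1.32 and 0.75.

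The 7 genes gained were *rps-5*, *rps-16*, *rps-23*, *rpl-6*, *rpl-18*, *rpl-21* and *rpl-23*. The neighbour-centred values of *rps-16* were 1.20, 0.97 and 0.55, where its deposited values were 0.65, 0.38 and 0.18. *rpl-11.1* moved most among the called genes with a neighbour-centred mean of 1.23 ± 0.30, since its neighbours were low on each array (-0.33, -0.56 and -0.45). *rps-7* on prep 2 stayed at 2.67, with a neighbour median of -0.04.

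By chromosome, the members lay on I (14 genes), II (6), III (14), IV (12), V (7) and X (1). The 14 members on chromosome III had means from 0.31 to 0.96. The medians were 0.45 on I, 0.51 on II, 0.56 on III, 0.48 on IV and 0.61 on V. Genes with a longer span tended to have higher means, with a Spearman coefficient of 0.41 over the 54 members and 0.02 over the 15112 named genes. The span is that of the RefSeq gene and includes introns, and the points share the same arrays.

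The 12 ribosomal protein genes with other symbols gave a lower median of 0.38, with 2 higher (16.7%, against 12% of all genes) and 0 lower. *rplp-0*, for the base of the stalk that recruits elongation factors, measured 0.61, 0.88 and 1.06 and was 1.80-fold higher (limma, adjusted p = 0.0174). *rpl-23A.2* was the other. The stalk genes *rplp-2.1* and *rplp-2.2* had means of 0.27 ± 0.35 and 0.56 ± 0.68. Of 4 further ribosome-bound or fused proteins, *rack-1*, a scaffold on the small subunit head, measured 1.27, 0.96 and 1.03 and was 2.12-fold higher (limma, adjusted p = 0.00336). *ubq-2*, which encodes ubiquitin fused to L40, measured 0.46, 1.35 and 0.44 (limma, adjusted p = 0.0486), a call lost without any 1 prep (adjusted p from 0.053 to 0.43).

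Genes that build the ribosome included larger differences than the ribosomal proteins themselves. Of 27 measured genes of ribosome biogenesis and RNA polymerase I (36 on the list), 11 were higher and 2 lower, with a median of 0.53. The share higher was 40.7%, while over all genes 12% were higher and 10.8% lower. *fib-1*, the fibrillarin that methylates ribosomal RNA, measured 1.56, 4.46 and 2.28 and was 6.81-fold higher (mean 2.77 ± 1.51; limma, adjusted p = 0.000108), with a mean of 1.92 without prep 2. Its limma adjusted p was 0.0321 with robust eBayes and 0.288 without moderation of the variance. The count of higher genes was 6 without prep 1, 8 without prep 2 and 5 without prep 3 (all genes 10.2%, 10.7% and 9.35%). *nol-58*, a partner of fibrillarin, measured 1.53, 2.19 and 1.48 and was 3.32-fold higher (limma, adjusted p = 0.000114). The 2 lower genes, of which 0 or 1 was called with 1 prep left out and which were named after their values were seen, were *byn-1* (-1.17 ± 0.78) and *lpd-7* (-0.84 ± 0.01). Like *rps-7*, *rps-11* and *rpl-4*, *fib-1* had its highest value on prep 2.

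Of 27 initiation factor genes, 9 were higher (33.3%, against 12% of all genes) and 0 lower, with a median of 0.47. Without prep 1 there were 5 higher (all genes 10.2%), and without either other prep 7 (10.7% without prep 2 and 9.35% without prep 3). *inf-1*, for the helicase eIF4A, measured 1.32, 1.57 and 1.66 (2.86-fold; limma, adjusted p = 0.000231), and *ifg-1*, for the scaffold eIF4G, measured 1.82, 1.49 and 1.18 (2.82-fold; limma, adjusted p = 0.000323). Of 8 elongation and termination genes, 3 were higher (37.5%) and 1 lower, with a median of 0.37 (1 higher without prep 2 or prep 3). The release factor gene *erfa-3* was 2.02-fold higher (1.02 ± 0.30; limma, adjusted p = 0.00630; 0.067 without prep 3). The lower gene was *efk-1*, for the kinase that inhibits elongation factor 2, at -2.04, -1.80 and -2.68 (4.51-fold lower; limma, adjusted p = 1.65e-05).

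The mitochondrial ribosome is built from a separate set of proteins. Of its 45 genes 4 were higher and 2 lower (8.89% higher, against 12% of all genes), with medians of 0.06, 0.18 and 0.35 on preps 1 to 3. Without prep 2 or prep 3 the number higher was 1, and with 1 prep left out the number lower was 0 or 1. After neighbour centring 8 were higher and 2 lower, where 13.6% of all genes were higher. *mrpl-44* was 1.92-fold higher (0.94 ± 0.12; limma, adjusted p = 0.00866) and *mrps-11* 1.89-fold lower (-0.92 ± 0.27; limma, adjusted p = 0.0119; 0.11 without prep 3).

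**Figure D4:**
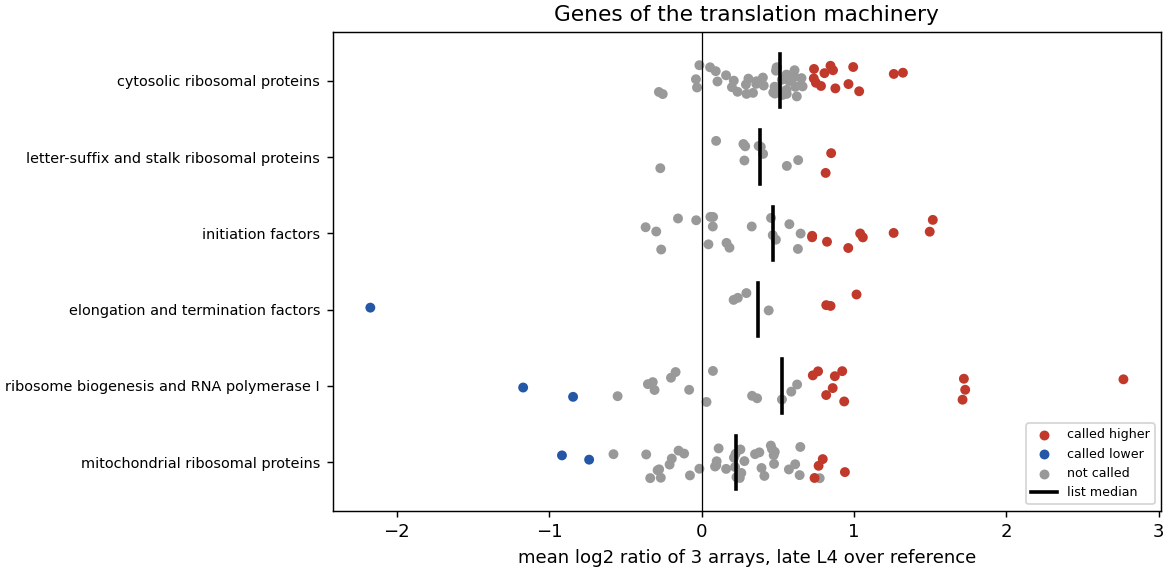
Mean log2 ratio of the 3 arrays (horizontal axis) for the 54 cytosolic ribosomal protein genes and 5 other lists, 1 point a gene, coloured by the limma call, with the list median as a bar. The medians run from 0.23 for the mitochondrial ribosomal proteins to 0.53 for ribosome biogenesis, and *fib-1* at 2.77 and *efk-1* at -2.17 lie outermost.

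Markers of tissues and stage also differed from the reference. Their counts stand beside 12% of all genes higher and 10.8% lower. Of 30 major sperm protein genes, which are transcribed during sperm formation in L4, 29 were higher, and of 15 germ line genes 7 were higher and 0 lower. Of 11 oocyte and yolk genes 4 were lower, of 7 intestinal genes 5 were higher, of 7 body wall muscle genes 5 were higher and of 7 neuronal genes 4 were lower. All 3 adult cuticle collagens were higher, with medians of 4.94, 4.27 and 1.78 on preps 1 to 3. The germ line median was 0.96, 0.72 and 0.42 on preps 1 to 3. These are ratios, so no level of a tissue is known, and the part of tissue content in the ribosomal protein values was not tested.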

How the data were processed

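The authors deposited 1 log2 ratio per feature and array, of late L4 RNA against the mixed reference as read from the sample descriptions. How the authors corrected background and normalized, which dyes they used and what the probes are is not given in the sources used here, and 0 arrays were dye-swapped per the labels. Raising 2 to each value gave a multiple of 0.001 (tolerance 0.05 of a step) for 100% of values. Values were used as deposited.

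Symbols came from the platform annotation, updated by Entrez ID with the RefSeq table for WBcel235. Features of a gene were averaged where measured on every array (19736 features). The mean was tested against 0, two-sided, by limma 3.58.1 under R 4.3.3 (moderated by eBayes) and Benjamini-Hochberg adjustment over all 19292 genes and unnamed features (2 residual and 12.8 prior degrees of freedom, prior SD 0.438). The test leaves out the spread of the reference. Subunits were compared over arrays by exact sign flips. The procedure was also run on data simulated with independent errors and variances drawn from the fitted prior. Those data lack the likeness of neighbouring features seen here, so the run checks the code and not the calls.

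The members, lists and tests were chosen with earlier results of these data known. Named were the called members, numbered pairs, the 5 highest and 5 lowest members of each subunit, the 3 largest SDs and 2 genes a list by call, size and p; others were named after their values were seen. Alternatives were centring, scaling, feature and membership rules, variance settings, a stricter threshold and leaving out each prep. Neighbour centring and wider membership were added after seeing the data.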

Additional observations from a re-analysis of the deposited data

How the results depend on the processing

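No paired analysis was possible because there is 1 group. Signal over background is unknown, so what it limits was not analysed here. The count of 13 higher members was 4 at an adjusted p under 0.01, a stricter threshold, and 4 to 7 when 1 prep was left out, with fewer arrays fitted. The share of all genes at the stricter threshold is not given here, so that count cannot be read against it. Without moderation of the variance limma called 0 members, with 2 degrees of freedom per gene. At an unadjusted p under 0.05 that fit had 19 members higher and 0 lower, against 1874 higher and 2340 lower of all 19292 genes. The count of lower members was 0 under every alternative run. The members' median of 0.51 was 0.56 under median centring, with or without scaling, 0.53 without the numbered pairs, 0.49 with the 12 other ribosomal protein genes and 0.48 to 0.52 with 1 prep left out. With 1 prep left out, higher genes numbered 5 to 7 for initiation, 1 to 3 for elongation and termination, 5 to 8 for biogenesis, 1 to 4 for mitochondrial ribosomal proteins and 1 for the other ribosome proteins (1 also under median centring), and lower genes 0 to 1 for biogenesis and 0 to 1 for mitochondrial ribosomal proteins. Over all genes the share higher was 10.2%, 10.7% and 9.35% without preps 1, 2 and 3. The difference between subunits moved by less than its SD under every alternative run. Leaving out a prep alters both the number of arrays and which arrays are fitted. Causes were not tested.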
